A study of Mus musculus with 22 samples.

Results

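Ajap1 (gene 230959) encodes adherens junctions associated protein 1, and its methylation was followed here cytosine by cytosine along the minus strand of mouse chromosome 4 (mm10, chr4:153371000-153486000). The members were the CpG cytosines of this region that had at least 10 reads in every one of the 22 samples, which gave 371 positions of 1140639 covered in all samples. The gene was chosen by its methylation difference between PyMT and FVB tissue in these same samples, so PyMT against FVB values at this locus, calls included, are given as a description and nothing is read from them. The 371 positions lay on 299 CpG sites and made up 9.51% of the 3902 CpG cytosines of the region.

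Methylation was measured by enhanced reduced representation bisulphite sequencing (ERRBS), in which DNA cut at CCGG sites is treated with bisulphite, so that unmethylated cytosines read as T and methylated ones as C. The 10 PyMT samples were mammary glands or tumors of females of the FVB background heterozygous for the MMTV-PyVT transgene, which expresses the polyomavirus middle T antigen under the mouse mammary tumor virus promoter, mainly in the mammary epithelium. They comprised 2 samples of hyperplasia at week 6, 3 of adenoma/MIN (mammary intraepithelial neoplasia) at week 8, 3 of early carcinoma at week 10 and 2 of late carcinoma at week 12. The 12 controls were normal mammary glands of female FVB mice without the transgene, 3 at each of the same weeks. All samples were bulk tissue, so that a change in the share of cells carrying methylated Ajap1 and a change within the same cells cannot be told apart. Depth was even, with 1314077 to 1435757 positions and a mean coverage of 60.2 to 79.2 reads per sample, and the locus positions averaged 72.6 reads. A principal component analysis used the positions covered in all samples whose SD was above the median. The week 8 FVB replicate 2 stood apart from the other samples on the second component, and calls that moved without it are given with both values.

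The AJAP1 protein spans the membrane and is found at adherens junctions, the cadherin-based contacts that hold epithelial cells together and link them to the actin cytoskeleton. A CpG island is a stretch of DNA rich in CpG sites that overlaps many promoters and is normally unmethylated, whereas the CpG sites of gene bodies are normally methylated. Gain of methylation in promoter islands and loss of methylation elsewhere are both common in tumors. Ajap1 expression was not analysed here.

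The curated RefSeq transcript ran from its transcription start site (TSS) at position 153482830 to 153373221 and had 6 exons. Distances below are counted in bases from the TSS in the direction of the gene, with negative values upstream. A CpG island of 1191 bases, found from the reference sequence, covered distances -375 to 815 and held 163 CpG sites. Of the 371 positions, 234 formed a dense run from -419 to 1406, called the promoter block here. The block held 57 positions upstream of the TSS, 125 in the 5′ UTR part of exon 1 and 52 in intron 1, and it took in 53.7% of its 436 CpG cytosines. A single position lay further upstream, at -873 in the first exon of a predicted transcript, and 3 lay in intron 1 between 3482 and 3601. The other 133 positions, called the far gene body, lay between 12762 and 108947, in introns 1, 2 and 5, coding exons 2 and 4 and the last exon.

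Some stretches of the block are shown because they bound the TSS and hold positions with high levels at week 12. They are written 5′ to 3′ on the gene strand from the RefSeq genome GRCm38.p6, the assembly of mm10, with the CpG sites covered in all samples in capitals and all other bases in lower case. The stretch at chr4:153483181-153483270 (minus strand) is the upstream edge of the block, at distances -440 to -351, and 6 of its 11 CpG sites were covered. The stretch at chr4:153482831-153482960 (minus strand) holds the 130 bases just before the TSS, with 24 of 28 CpG sites covered. The stretch at chr4:153481736-153481845 (minus strand) lies in intron 1, at distances 985 to 1094, with 10 of 16 CpG sites covered.
Upstream edge: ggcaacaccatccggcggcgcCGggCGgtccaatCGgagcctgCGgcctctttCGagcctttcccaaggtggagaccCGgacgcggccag
Before the TSS: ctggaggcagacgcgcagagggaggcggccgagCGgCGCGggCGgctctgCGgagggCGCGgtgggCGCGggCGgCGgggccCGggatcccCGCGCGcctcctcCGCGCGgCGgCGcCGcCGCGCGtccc
Intron 1: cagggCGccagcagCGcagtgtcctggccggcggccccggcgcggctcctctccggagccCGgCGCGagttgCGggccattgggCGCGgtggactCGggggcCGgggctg

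In the normal gland the promoter block was almost free of methylation. Over the 234 positions, mean levels of FVB samples ran from 0.922% to 1.68%, with an average of 1.33% ± 0.231 (SD, n = 12). The median position was at 0% in each FVB sample, and 120 to 196 of the 234 positions had no methylated read.

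In PyMT tissue the block mean was higher at each later stage. It was 6.05% and 4.79% in the 2 hyperplasia samples. It was 8.58%, 13.99% and 13.7% in the 3 adenoma/MIN samples, and 17.3%, 19.7% and 14.8% in the 3 early carcinoma samples. Each of these 8 samples lay above the highest FVB sample, and the ranges of the 4 stages did not overlap. The 2 late carcinoma samples reached 29.7% and 27.8%, which is the highest level of any stage. Against the FVB samples of the same week, the block mean was higher by 4.09 points in hyperplasia, 10.9 points in adenoma/MIN, 15.8 points in early carcinoma and 27.4 points in late carcinoma.

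**Figure D1:**
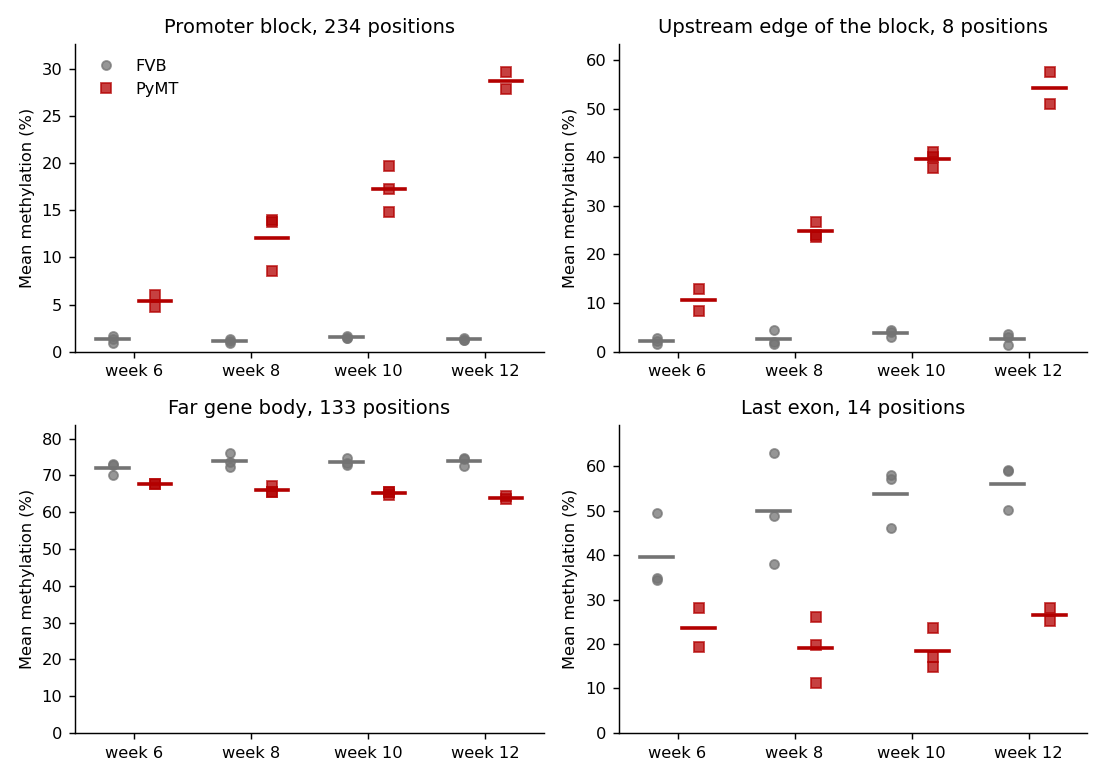
Mean methylation level (%) of 4 parts of the Ajap1 locus by week, with 1 point per sample (circles FVB, squares PyMT) and a bar at the group mean. In the promoter block the FVB samples stay between 0.922% and 1.68% while PyMT samples go from 4.79% to 29.7%; in the far gene body and the last exon the PyMT samples lie below the FVB samples.

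Summed over the block positions, 13419 to 22438 cytosine readings stood behind the block mean of a sample. A read was counted at each position it covers. Over pooled readings, the level was 6.39% in hyperplasia replicate 1 (95% Wilson interval 6.00% to 6.79%) and 31.0% in late carcinoma replicate 1 (30.3% to 31.7%). These intervals take the readings as independent, which readings from the same read are not, so they are too narrow.

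The level of single positions in the block varied widely around these means. No position reached 50% in the hyperplasia samples, and 8 and 13 positions reached 20%. In the late carcinoma samples 156 and 178 of the 234 positions reached 20%, 20 and 22 reached 50%, and none was at 0%. The median position of the block, taken over stage means, was at 4.08% in hyperplasia, 10.7% in adenoma/MIN, 15.2% in early carcinoma and 26.7% in late carcinoma, and its FVB value was 1.03%. From week 6 to week 8 the mean was higher at 211 of the 234 positions, from week 8 to week 10 at 172, and from week 10 to week 12 at 222. At 141 positions it was higher at each of the 3 steps.

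The higher level in PyMT tissue was found in all parts of the block at each stage. The part upstream of the TSS, the exon 1 part and the intron 1 part differed from FVB by 3.66, 4.70 and 3.09 points at hyperplasia, and by 28.5, 27.2 and 26.7 points at late carcinoma. Expressed as a share of the difference at week 12, hyperplasia stood at 12.9%, 17.3% and 11.6% in these 3 parts, adenoma/MIN at 41.1%, 40.1% and 37.9%, and early carcinoma at 57.7%, 57.6% and 56.6%. Across the 234 positions the correlation between level and distance from the TSS was close to 0 at each stage (Pearson r from -0.0840 at week 10 to -0.0336 at week 6). With the number of CpG sites within 50 bases it was 0.0970 at week 12, and with mean coverage it was 0.0900. These correlations are descriptions across positions of the same libraries, many of them on the same sequenced fragments, and carry no test.

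**Figure D2:**
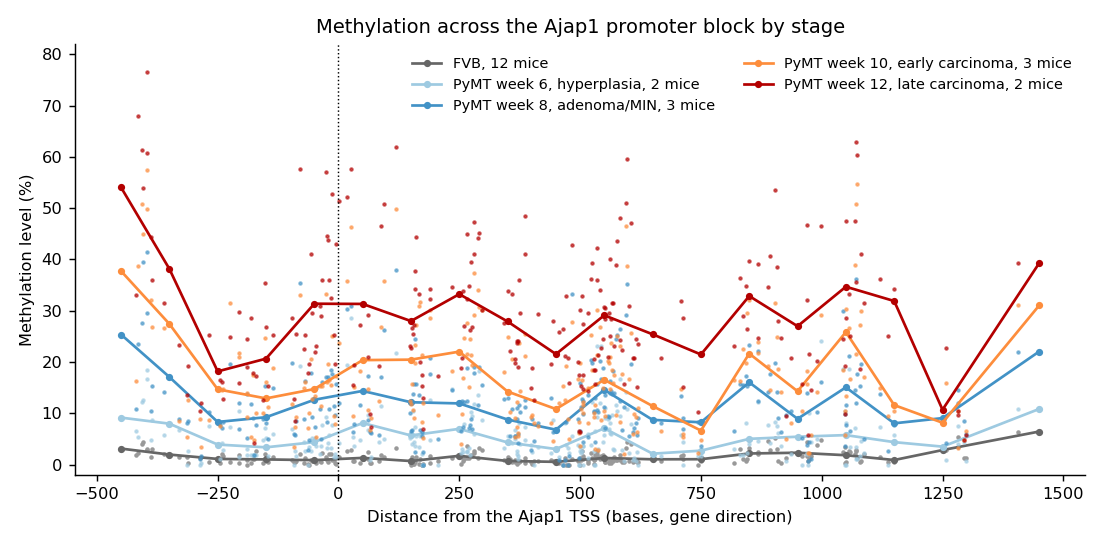
Methylation level (%) against distance from the Ajap1 TSS in bases for the 234 block positions; small points are single positions as means over the samples of a group, and lines join the means of 100-base bins for FVB (grey) and the 4 PyMT stages. The stages are stacked in order over most of the block, the highest bin at week 12 is the most upstream one with a mean of 54.1%, and the FVB line stays under 6.5%.

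The upstream edge of the block was the most methylated stretch in the tumors. Its 8 positions, from -419 to -386, had a mean of 12.9% and 8.41% in the hyperplasia samples and of 24.0%, 23.7% and 26.7% in the adenoma/MIN samples. The early carcinoma samples were at 37.8%, 41.1% and 39.998%, and the late carcinoma samples at 50.9% and 57.5%. The 12 FVB samples lay between 1.46% and 4.52%, and all stages were separated from each other and from FVB without overlap. Here the hyperplasia samples stood at 16.4% of the week 12 difference and the early carcinoma samples at 69.4%. These positions are the first 5 CpG sites in capitals of the upstream edge printed above.

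The other printed stretches followed the stages too. The 25 positions in the 130 bases before the TSS averaged 0.858% in FVB, 4.37% in hyperplasia, 12.6% in adenoma/MIN, 14.7% in early carcinoma and 31.4% in late carcinoma. The 16 positions of the intron 1 stretch averaged 2.13% in FVB and 6.83%, 14.8%, 25.3% and 34.5% over the same stages. From adenoma/MIN to early carcinoma the mean thus differed by more in intron 1 than just before the TSS, a difference that was not tested.

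The position with the highest level at week 12 was the minus-strand cytosine at -397. It was at 22.03% and 11.3% in hyperplasia, 32.7%, 26.7% and 29.2% in adenoma/MIN, 49.4%, 63.3% and 59.7% in early carcinoma, and 72.6% and 80.3% in late carcinoma. Its 12 FVB values ran from 0% to 8.00%, so that each PyMT sample lay above all of them. The plus-strand cytosine of the same CpG, at -396, was at 14.5% and 22.4% in hyperplasia and at 55.4% and 66.2% in late carcinoma. Both strands of this site were thus methylated from the earliest stage measured.

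Just downstream of the TSS, 2 positions of the 5′ UTR also stood out. The cytosine at 25 had the highest level of the block at hyperplasia, with 34.2% and 22.8%, and was at 66.97% and 48.1% in late carcinoma. The cytosine at 118 was at 17.2% and 26.3% in hyperplasia, at 29.9%, 35.8% and 48.2% in adenoma/MIN, at 46.4%, 54.9% and 48.3% in early carcinoma, and at 67.8% and 55.9% in late carcinoma. FVB levels did not exceed 8.94% at the former or 6.33% at the latter, and no PyMT sample overlapped them. In intron 1 the cytosine at 1071, one of the covered sites of the stretch printed above, was at 6.67% and 0% in hyperplasia and at 69.2% and 56.5% in late carcinoma; the 0% rests on 23 reads, which allows a level of up to 13.0%. Its FVB values ran up to 9.09%, so that hyperplasia overlapped FVB there while the later stages, from 20% upward, did not. These positions were picked after their values were seen.

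Between these peaks lay stretches with smaller gains. The bin from -300 to -201 had a mean of 18.2% at week 12, and the 5 positions between 1200 and 1299 had a mean of 10.7%, against 2.82% in FVB. The cytosine at 544 went against the order of the stages, with 35.3% and 11.1% in hyperplasia, 13.6%, 12.5% and 0% (of 30 reads) in early carcinoma and 15.8% and 29.6% in late carcinoma. It had a mean coverage of 36.5 reads.

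Positions that were high at one stage tended to be high at the next. Across the 234 positions Pearson's r with the late carcinoma level was 0.551 for hyperplasia, 0.720 for adenoma/MIN and 0.815 for early carcinoma. Between samples of the same stage r was 0.331 for the 2 hyperplasia samples, 0.460 to 0.588 for adenoma/MIN, 0.525 to 0.676 for early carcinoma and 0.680 for late carcinoma. The level in FVB was correlated with the late carcinoma level at r = 0.439. These values too are descriptions, since neighbouring positions share reads and all levels share the sequence and the coverage of the position.

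**Figure D3:**
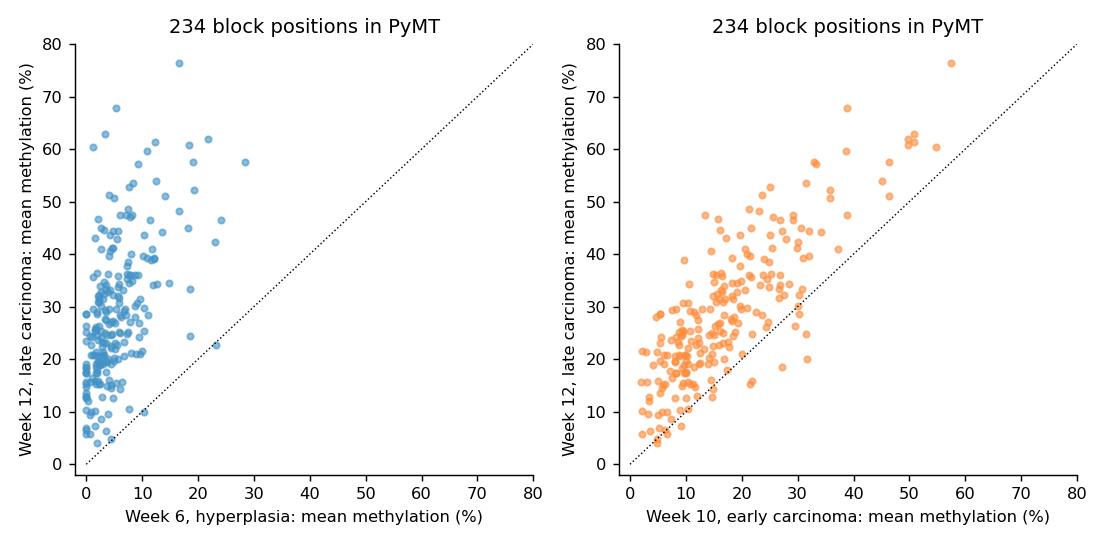
Mean methylation level (%) in late carcinoma (vertical axis) against hyperplasia (left, horizontal axis) and early carcinoma (right) for the 234 block positions; 1 point per position, dotted line at equal levels. The level is higher in late than in early carcinoma at 222 of the 234 positions, and the points follow a tighter band against early carcinoma (r = 0.815) than against hyperplasia (r = 0.551).

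The same columns of high methylation recurred from sample to sample. The map of single samples shows the upstream edge as a light band in each of the 5 carcinoma samples. The 2 strands of a CpG gave similar levels. At the 55 block CpG sites covered on both strands, the plus strand averaged 28.7% and the minus strand 31.1% at late carcinoma, 5.35% and 5.89% at hyperplasia, and 1.43% and 1.34% in FVB. Positions in CCGG sites, the sites cut in the assay, averaged 28.8% at week 12, as did the other block positions (28.8%).

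**Figure D4:**
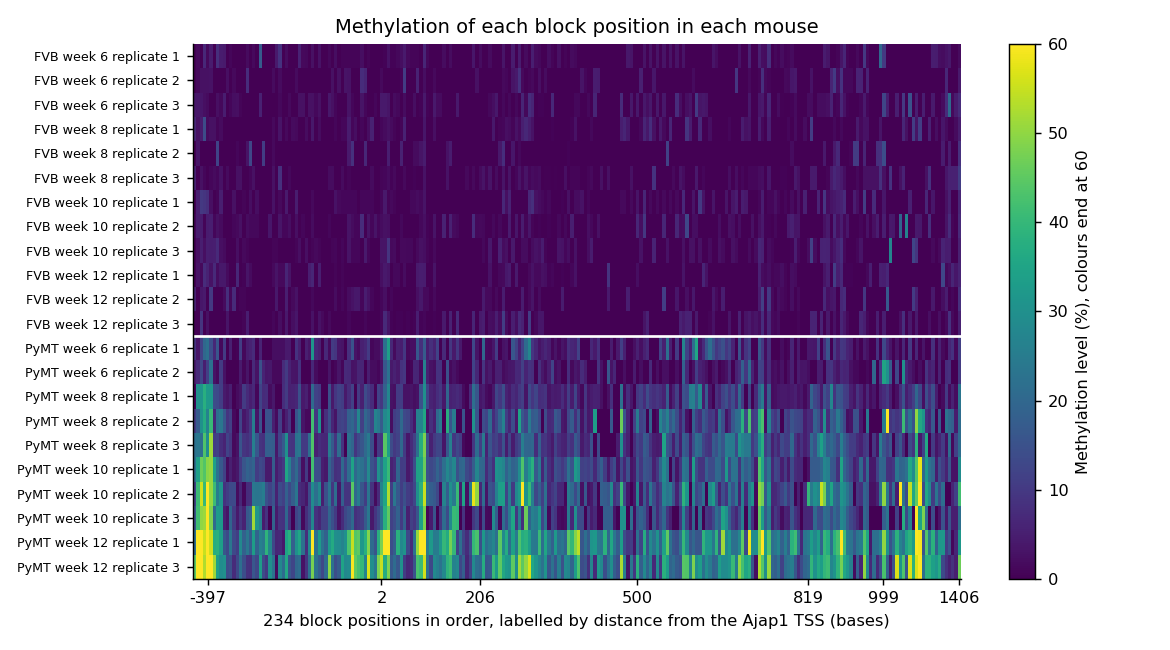
Methylation level (%) of each of the 234 block positions (columns, in order of distance from the TSS) in each of the 22 samples (rows; 12 FVB above the white line, 10 PyMT below). FVB rows are dark throughout, and the PyMT rows lighten from week 6 to week 12, most at the left edge, where the week 12 samples average 50.9% and 57.5%.

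Differentially methylated cytosines (DMCs) were called with a logistic model of the methylated and unmethylated reads. A position was a hyper-DMC or hypo-DMC where the difference reached 10 points and the q-value was below 0.01. In the block, hyper-DMCs numbered 20 at hyperplasia, 101 at adenoma/MIN, 146 at early carcinoma and 214 at late carcinoma. No block position was a hypo-DMC at any stage, but the low FVB levels left little room for a fall of 10 points. Over all positions of the series, 2.62%, 3.2%, 4.39% and 4.44% were hyper-DMCs at these stages. These counts come from the contrast that led to the choice of the gene, so nothing is read from them beyond the values. In the whole locus, with the far gene body, there were 29, 104, 153 and 220 hyper-DMCs, and the 29 at hyperplasia became 15 without hyperplasia replicate 1. Of the 234 block positions, 20 were first called in hyperplasia, 82 in adenoma/MIN, 58 in early carcinoma and 56 in late carcinoma, while 18 were called at no stage. All 20 positions called at hyperplasia were called again at late carcinoma, as were 100 of the 101 called at adenoma/MIN and 144 of the 146 called at early carcinoma.

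The model treats reads rather than mice as units, and a fit with mice as units called far fewer positions. With limma no locus position was called higher at weeks 6, 8 and 12. At an unadjusted p under 0.05, 91, 186 and 235 positions were higher at these weeks. Limma called no position of the whole series in either direction at these weeks, so the lack of calls is not particular to the locus. At week 10 it called 43 locus positions higher, with 0.238% of all positions of the series called higher. Without a model, every sample of a stage lay above all 12 FVB samples at 55 block positions in hyperplasia, 123 in adenoma/MIN, 154 in early carcinoma and 217 in late carcinoma. Over all positions of the series this was so at 2.29%, 1.77%, 2.51% and 4.58%. The 4 counts share the FVB samples.

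The 20 block positions called at hyperplasia were found on both sides of the TSS, from -406 to 868. Of these, 4 lay upstream, 15 in the 5′ UTR and 1 in intron 1, and their median level went from 15.7% at week 6 to 44.6% at week 12. The 18 positions called at no stage, from -314 to 1298, had a median of 9.02% at week 12 and did not exceed 14.4%. Their median coverage was 70.1 reads, against 69.7 for the block. At the limit of the coverage rule, the 21 block positions with enough reads in 21 of 22 samples averaged 2.83% at hyperplasia and 31.2% at late carcinoma, and the 31 block positions whose lowest coverage was 10 to 12 reads averaged 5.48% and 29.5%, against 5.42% and 28.8% for the whole block. In the far gene body, the 6 positions covered in 21 samples averaged 73.6% in FVB and 49.4% in late carcinoma, and the 4 members with 10 to 12 reads at their lowest averaged 75.3% and 77.7%.

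The step from premalignant to malignant tissue was compared among PyMT samples only, with mice as units. These samples are also part of the contrast by which the gene was chosen, so the comparison is not independent of that choice. The premalignant pool held the 5 samples of weeks 6 and 8 and the malignant pool the 5 samples of weeks 10 and 12, and the FVB samples of the same weeks served as a control for age. Positions within 500 bases of the TSS, the core, had a mean of 9.09% ± 4.11 (SD, n = 5) in premalignant and 22.2% ± 6.34 (SD, n = 5) in malignant tissue. The difference was 13.1 points, and the pools did not overlap, since the highest premalignant sample was at 13.4% and the lowest malignant one at 15.8%. An exact two-sided permutation test over samples gave p = 0.00794, the smallest p that 5 against 5 allows, and an adjusted p of 0.0595 over the 10 tests of 5 zones in PyMT and FVB. Over the 98 positions more than 500 bases past the TSS, up to 1406, the difference was 11.5 points (exact permutation p = 0.0238, adjusted p = 0.0595). Here the pools overlapped, as an early carcinoma sample at 13.5% lay below the adenoma/MIN samples at 14.9% and 14.2%.

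In FVB the same zones differed little between the weeks. The core averaged 1.02% ± 0.206 (SD, n = 6) in weeks 6 and 8 against 1.15% ± 0.0814 (SD, n = 6) in weeks 10 and 12, a difference of 0.123 points (exact permutation p = 0.195, adjusted p = 0.325). In the zone past 500 bases the FVB difference was 0.258 points (exact permutation p = 0.262, adjusted p = 0.360). The difference between the PyMT and FVB changes was not tested, since the gene was chosen by that contrast.

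By the read-based model, 118 of the 234 block positions were hyper-DMCs in malignant against premalignant PyMT tissue and none was a hypo-DMC, where 1.37% and 1.07% of all positions of the series were called. For FVB weeks 10 and 12 against weeks 6 and 8, no block position was called in either direction, with 0.645% and 0.264% of all positions called. The low FVB levels of the block left little room for a fall of 10 points there. The PyMT count depends strongly on the spread between mice. Over the locus 120 positions were hyper-DMCs, 17 with a correction for overdispersion and none with limma. At an unadjusted p under 0.05, 150 were higher with limma. Over the series the correction called 0.0916% of positions higher and limma none.

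The stretch around the TSS that stayed low in methylation was measured in each sample as the run of positions whose mean over 5 neighbours was under 20%. In FVB it spanned 2172 to 4356 bases with a median of 2280, in each case reaching from -873 to 1298 or beyond, so that its ends were set by where positions were covered. It spanned 1409 and 2172 bases in the hyperplasia samples and 924, 0 and 90 bases in the adenoma/MIN samples. In all 5 carcinoma samples the mean at the TSS itself was not under the limit and the width was 0. The width is 0 whenever that mean reaches the limit, whatever lies around it. Other parts of the block were still under 20% in early carcinoma, with 14.2% over 300 to 399 and 10.8% over 400 to 499. With a limit of 30% the runs spanned 667, 380 and 1457 bases in early carcinoma and 0 in both late carcinoma samples. The malignant pool was 919 bases narrower than the premalignant pool (exact two-sided permutation test, p = 0.0476), and the p was 0.0873 when any single carcinoma sample was left out. Without hyperplasia replicate 2 the difference was -606 bases. With a limit of 10% it was -82.8 bases (exact permutation p = 1), since hyperplasia replicate 2, with 414 bases, was the only PyMT sample left with a low run. With a limit of 30% it was -1426 bases and with means over 9 neighbours -1450 bases (exact permutation p = 0.00794 each).

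Beyond the block, the 3 intron 1 positions between 3482 and 3601 were partly methylated in PyMT and FVB. They averaged 53.5% and 53.2% in hyperplasia, 43.4%, 59.96% and 44.9% in adenoma/MIN, 51.6%, 51.1% and 58.9% in early carcinoma, and 47.4% and 57.0% in late carcinoma. The FVB samples lay between 23.5% and 42.6%, below each PyMT sample. Among PyMT samples the malignant pool differed by 2.23 points (exact permutation p = 0.563, adjusted p = 0.563), so that no change between stages was detected there. In FVB the later weeks were 6.56 points lower (exact permutation p = 0.0238, adjusted p = 0.0595). The single position at -873 was at 16.2% and 11.8% in hyperplasia and at 45.8% and 48.5% in late carcinoma, while FVB ranged from 15.1% to 37.1% and overlapped with 6 of the 10 PyMT samples.

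The far gene body was less methylated in PyMT than in FVB tissue. Its 133 positions averaged between 70.0% and 76.0% in the 12 FVB samples. The PyMT samples were at 67.5% and 67.7% in hyperplasia, 65.5%, 67.2% and 65.6% in adenoma/MIN, 65.4%, 65.6% and 64.8% in early carcinoma, and 64.3% and 63.5% in late carcinoma. Each PyMT sample lay below the lowest FVB sample. The malignant pool was 1.97 points below the premalignant pool (exact permutation p = 0.0238, adjusted p = 0.0595). There were 2 alternatives. With labels permuted within replicate numbers the difference was -1.64 points (exact permutation p = 0.0185, adjusted p = 0.123). With the weeks taken as a slope the level fell by 0.587 points per week (exact permutation p = 0.000238, adjusted p = 0.000794). The FVB slope was 0.274 points per week (resampled permutation p = 0.189, adjusted p = 0.314). Between the FVB pools of the same weeks the difference was 0.799 points in the other direction (exact permutation p = 0.418, adjusted p = 0.464), and 1.41 points without the week 8 FVB replicate 2 (exact permutation p = 0.0779, adjusted p = 0.156).

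Hypo-DMCs of the far gene body numbered 23, 32, 36 and 44 of 133 at the 4 stages, and 14 positions were hypo-DMCs at all of them. Without hyperplasia replicate 1 the 23 became 6, and without either late carcinoma sample the 44 became 29. Over all positions of the series 6.01%, 7.1%, 8.42% and 8.53% were hypo-DMCs. Hyper-DMCs there numbered 8, 2, 5 and 2. Both late carcinoma samples lay below all 12 FVB samples at 26 positions, where 6.66% of the series did so.

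**Figure D5:**
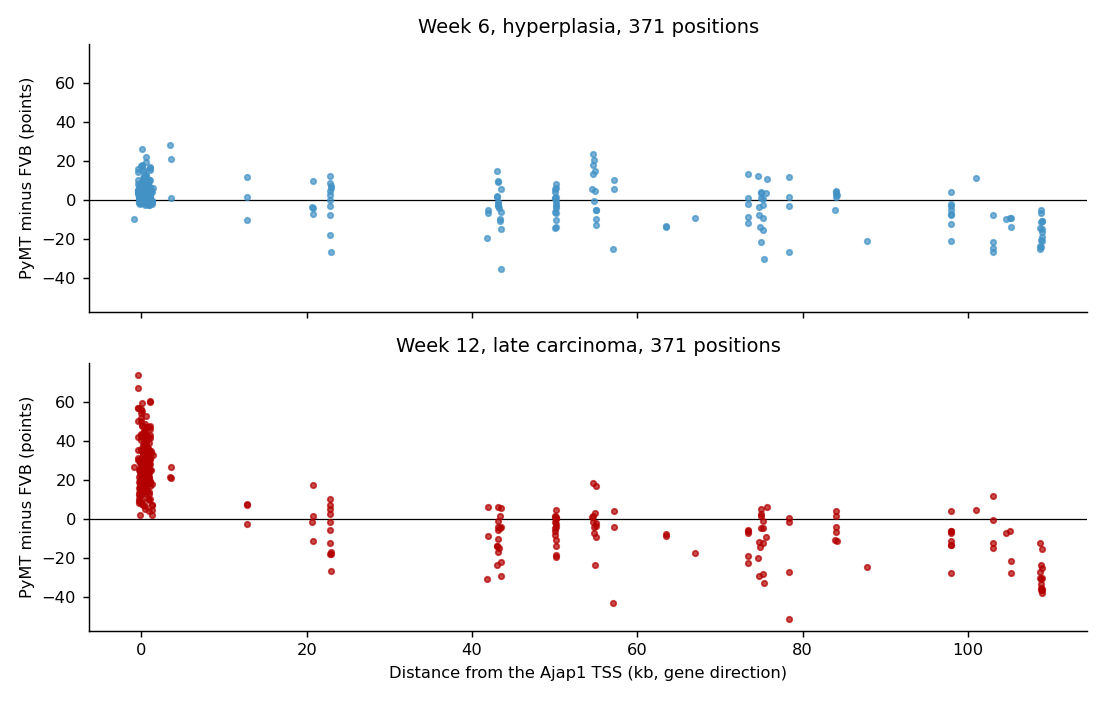
PyMT minus FVB methylation level (points) against distance from the Ajap1 TSS (kb) for the 371 positions, at week 6 (top) and week 12 (bottom); 1 point per position, taken as the difference of group means. At week 12 all 234 block positions lie above 0, while 100 of the 133 far gene body positions lie below it and the last exon falls lowest as a group.

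The loss was unequal along the body. It was largest as a group in the last exon, all of which is 3′ UTR. Its 14 covered positions, from 108720 to 108947, averaged 19.3% and 28.0% in hyperplasia, 11.3%, 26.1% and 19.7% in adenoma/MIN, 14.8%, 23.5% and 17.1% in early carcinoma, and 25.2% and 28.1% in late carcinoma. The FVB samples were between 34.4% and 62.9%, so that PyMT and FVB did not overlap at any stage. The FVB mean of these positions went from 39.6% in week 6 to 49.9%, 53.7% and 56.0% in the later weeks. In FVB 5 positions of this exon were hyper-DMCs at weeks 10 and 12 against weeks 6 and 8. Over the locus 6 positions were, which became 12 without the week 8 FVB replicate 2 and 3 without the week 6 FVB replicate 1.

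The covered positions of coding exons 2 and 4 were still highly methylated in late carcinoma, but their means lay below those of FVB. The 16 positions of exon 2, from 49998 to 50175, averaged 84.8% ± 1.29 (SD, n = 12) in FVB, 83.9% in hyperplasia and 78.8% in late carcinoma. The 8 positions of exon 4, from 97879 to 97993, averaged 88.1% in FVB, 83.4% in hyperplasia and 77.4% in late carcinoma. The 95 intronic positions averaged 73.7% ± 1.22 (SD, n = 12) in FVB, 70.0% in hyperplasia and 65.8% in late carcinoma. The position with the largest loss, at 78330 in intron 2, had between 60% and 92.9% in FVB, 29.0% and 52.0% in hyperplasia and 21.7% and 30.8% in late carcinoma, with a mean coverage of 31.7 reads. Over the 4 positions of its cluster, from 78330 to 78381, the FVB samples lay between 35.7% and 47.4% and the PyMT samples between 22.1% and 39.5%, so that the ranges overlapped. Against FVB samples of the same week, they overlapped at week 6 but not at weeks 8, 10 and 12.

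Promoter methylation of cell type marker genes is given beside the Ajap1 values, since promoters of cell type genes are often less methylated in cells that use them. Shares of cell types cannot be read from these levels, and the luminal, adipocyte and basal list means were all lower in PyMT than in FVB. For the luminal epithelial list (Epcam, Krt8, Krt18, Krt19, Cldn4, Elf5) all 6 genes were measured, and their mean lay between 15.6% and 23.4% in FVB and between 5.50% and 8.90% in PyMT. By stage it was 6.99%, 6.74%, 6.19% and 7.99%, so that PyMT and FVB did not overlap at any week. The adipocyte list, with 4 of 5 genes measured, averaged 61.8% in FVB and went from 53.6% at hyperplasia to 46.4% at late carcinoma. The endothelial list (4 of 4 genes) was at 64.5% in FVB and at 68.7%, 65.3%, 64.1% and 62.2% over the PyMT stages. Csf1r, the colony-stimulating factor receptor of macrophages, had 1 covered promoter position, which was at 93.7% in FVB and at 88.0%, 85.2%, 82.5% and 75.9% over the PyMT stages. In PyMT the means of the adipocyte and endothelial lists and Csf1r thus stood lower at each later stage, while the block mean stood higher. The FVB mean of the endothelial list also went down from week 6 to week 8, with 66.7%, 63.1%, 64.2% and 64.1% over the 4 weeks. For the adipocyte list the FVB means were 62.4%, 60.8%, 60.7% and 63.3%. Members of the lists went different ways. Pecam1 was at 52.6% in FVB and at 67.5%, 69.8%, 68.9% and 69.1% over the PyMT stages. Cdh5 was at 47.8% in FVB and at 39.0%, 32.7%, 32.2% and 23.2%. Tie1 was above FVB at each stage and Emcn below it. Plin1 was above FVB at hyperplasia and adenoma/MIN, while Adipoq, Cidec and Lep were below FVB at each stage. The basal list (Krt5 and Krt14 of 4) was at 67.2% in FVB and 59.7% in PyMT. The part of cell makeup in the Ajap1 values was not tested.

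Among 13741 genes with at least 10 promoter positions within 2 kb of a TSS, the 5 whose promoter levels followed Ajap1 most closely over the 22 samples were Cbln4, Rbm46, Rbm46os, Klf14 and Tmem132d. Likeness was the root mean square difference between the promoter means of 2 genes, each taken relative to its FVB mean, and it was 1.77, 2.14, 2.15, 2.55 and 2.59 points for these genes, against a median of 11.02 points. The whole Ajap1 promoter, which is the block with the position at -873, averaged 1.42% in FVB and 28.8% at week 12. Cbln4, a secreted synaptic protein, came nearest in level, with 1.91% in FVB and 8.83%, 14.1%, 17.3% and 27.0% over the 4 stages. Klf14, a Krüppel-like transcription factor, went from 5.67% in FVB to 13.4% at hyperplasia and 29.9% at late carcinoma. Tmem132d, a transmembrane protein, went from 4.88% to 13.9% and 33.4%. Rbm46, an RNA-binding protein of germ cells, started higher, at 20.9% in FVB, and reached 45.1%. Rbm46os, its neighbour on the other strand, shared all 114 positions of the Rbm46 promoter, so both count as 1 region. At week 12, 41 genes had a larger promoter difference than Ajap1.

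Few promoter positions were called in the other adherens junction genes. The list held 23 genes, from the cadherins and catenins to the nectins, and all had covered promoter positions, 1790 in all. Hyper-DMCs numbered 1, 2, 10 and 13 at the 4 stages, which is 0.0559%, 0.112%, 0.559% and 0.726% of the list's positions. Over all promoter positions 0.887%, 1.15%, 1.91% and 2.29% were hyper-DMCs. Hypo-DMCs numbered 6, 10, 10 and 9 in the list, with 1.13%, 1.37%, 1.46% and 1.34% of all promoter positions called.

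Cdh5, the cadherin of endothelial cells, had the largest promoter difference at week 12 among the genes of the list with at least 3 positions. Its 3 positions averaged 43.9% ± 3.65 (SD, n = 3) in week 12 FVB tissue against 23.2% ± 5.76 (SD, n = 2) in late carcinoma. Ctnnd1, which encodes p120 catenin, was at 90.4% ± 3.14 (SD, n = 3) and 96.1% ± 0.481 (SD, n = 2) over 11 positions. Cdh13, a cadherin anchored to the membrane by a lipid, was at 1.45% ± 0.605 (SD, n = 3) and 6.84% ± 1.83 (SD, n = 2) over 36 positions, 5 of which were hyper-DMCs. Cdh1, the epithelial cadherin, averaged 4.13% in week 12 FVB and 2.25% in late carcinoma over 67 positions, and Ctnnb1, which encodes β-catenin, 1.16% and 0.494% over 144.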

How the data were processed

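ERRBS was carried out on 10 PyMT and 12 FVB mammary samples. The authors aligned reads with Bismark (version not given in the sources used here) to mm10 and deposited, for each cytosine with at least 10 reads, its coverage as a read count and the methylated and unmethylated shares as percent. Bisulphite treatment does not separate methylated from hydroxymethylated cytosine, and ERRBS reads only regions near CCGG sites. The 2 samples that the authors removed as outliers were not analysed here.

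Read counts were recovered as coverage times percent. Positions covered in all 22 samples were kept, strands apart. DMCs were called genome-wide by a logistic likelihood ratio test with Benjamini-Hochberg adjustment over 1140639 positions; limma 3.58.1 on log2((methylated + 1)/(unmethylated + 1)), with mice as units, was an alternative, as were an overdispersion correction, a difference of 25 points, a minimum of 20 reads, merged strands, a replicate block, a slope on week and leaving out each sample. Zone means per sample were compared by exact permutation tests. Scripts used Python 3.11.15, numpy 2.4.6 and scipy 1.17.1 and were tested on simulated data. Reads without molecular identifiers are not independent molecules, so read-based tests cover counting error only.

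The locus, the gene lists and the tests were chosen with earlier results of these data known. Named genes were the 5 promoters nearest to Ajap1 and the 3 adherens junction genes with the largest week 12 difference among those with at least 3 positions; single positions, and Cdh1 and Ctnnb1, were picked after their values were seen. The labels do not say that samples of a group came from separate litters or cohorts, and p-values measure the spread between these samples. The result of 1 cell type marker list is not reported here.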

Additional observations from a re-analysis of the deposited data

Results flagged for a closer look

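Among 28 groups of 5 or 6 samples searched for a sample far from the others, 1 was found, where chance gives about 1 in 20. The low stretch around the TSS spanned 2172 bases in the week 8 FVB replicate 1 and 2280 bases in each of the other 5 FVB samples of weeks 6 and 8, a gap of 1 covered position.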

How the results depend on the processing

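Of 358 alternatives to 31 results, 292 kept their call or stayed within 1.5 times the count. No zone or width test changed direction, while for counts only the size was compared. At week 6 the locus had 29 hyper- and 23 hypo-DMCs by the main fit. The order turned at 25 points, with strands merged (21 and 22) and without the week 6 FVB replicate 2 (22 and 23). With a difference of at least 25 points, hyper- and hypo-DMCs of the locus numbered 3 and 9 at week 6, 13 and 15 at week 8, 36 and 19 at week 10, 125 and 22 at week 12, 12 and 0 for malignant against premalignant PyMT, and 0 and 0 for the FVB weeks. With overdispersion they numbered 14 and 4, 67 and 15, 129 and 20, and 204 and 18 at the 4 stages, 17 and 0 between the PyMT pools, and 0 and 0 in FVB (25 and 12 at an unadjusted p under 0.05). With limma they were 0 and 0 at week 6 (91 and 16 unadjusted), 0 and 0 at week 8 (186 and 27), 43 and 5 at week 10, 0 and 0 at week 12 (235 and 39), 0 and 0 between the PyMT pools (150 and 8), and 0 and 0 in FVB (19 and 11). Over the series the hyper and hypo shares at 25 points were 0.854% and 2.81% at week 6 and 1.05% and 3.12% at week 8. They were 1.55% and 4.05% at week 10, 1.82% and 4.57% at week 12, and 0.0580% and 0.0355% between the PyMT pools. With overdispersion they were 0.883% and 2.52% at week 6, 1.22% and 3.06% at week 8, and 2.39% and 5.22% at week 10. At week 12 they were 2.53% and 5.14%. With limma they were 0.238% and 0.751% at week 10 and 0 elsewhere. With strands merged the FVB hypo-DMC was lost (0). Fewer mice per fit were also tried: without 1 replicate, week 6 gave 15 to 38 hyper- and 6 to 23 hypo-DMCs, the lowest of both without hyperplasia replicate 1, and week 12 gave 29 to 41 hypo-DMCs, the lowest without either late carcinoma replicate. The PyMT pools gave 3 to 9 hypo-DMCs, the lowest without hyperplasia replicate 1. The FVB weeks gave 3 (without week 6 replicate 1) to 12 (without week 8 replicate 2) hyper- and 0 to 2 hypo-DMCs. The cause of these changes was not tested.

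As a slope on week, the PyMT change passed its threshold in the core (3.81 points per week, permutation adjusted p = 0.000794), past 500 bases up to 1406 (3.55) and in the far gene body (-0.587). Without early carcinoma replicate 3 the core difference was 14.7 and that past 500 bases 13.5 points (adjusted p = 0.0397 each, exact permutation); over all single omissions they ranged from 11.1 to 14.7 and from 9.57 to 13.5. The width of the low stretch differed by -606 to -1149 bases without 1 replicate by -82.8 bases with a limit of 10%, and by -1426 with a limit of 30%, -1450 with means over 9 positions and -1223 with strands merged. The labels do not say whether equal replicate numbers pair the samples. Deviations from group means correlated at -0.0422 to 0.0263 over 10 same-numbered PyMT and FVB pairs. Over 20 pairs of different number they correlated at -0.0353 to 0.0704, so no pairing was seen, though these values cannot exclude it. Under a replicate block the locus kept 24 and 17, 101 and 31, 149 and 36, and 208 and 37 DMCs at the 4 stages. Over the series the shares were 2.07% and 4.90%, 3.07% and 6.86%, 4.26% and 8.21%, and 4.08% and 7.74%. These locus counts differ from the main fit but stayed within 1.5 times of it. The core difference was then 12.6 points (exact permutation p = 0.0370, adjusted p = 0.123). As in the main tests, no zone had an adjusted p under 0.05.

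For the adherens junction promoters, hyper-DMCs at the 4 stages numbered 1, 0, 0 and 0 and hypo-DMCs 4, 2, 5 and 5 at 25 points. Over all promoter positions the shares were 0.245%, 0.317%, 0.549% and 0.753% hyper and 0.459%, 0.507%, 0.655% and 0.656% hypo. With overdispersion the list had 0, 1, 6 and 10 hyper- and 4, 3, 7 and 5 hypo-DMCs. The shares of all promoter positions were then 0.296%, 0.494%, 1.06% and 1.39% hyper and 0.478%, 0.528%, 0.938% and 0.793% hypo. Depth limits single positions most: at 10 reads a level moves in steps of 10 points.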
